A study of Gallus gallus with 6 samples.

Results

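The regions described here are the places on chicken chromosome 7 where the transcription factor TCF21 gave a peak in every one of 3 chromatin immunoprecipitation (ChIP) samples. Peaks from different lists were joined where they shared 1 bp or more, and a joined region was kept when it held a peak of all 3 lists. This gave 1462 regions on chromosome 7, of 37420 in the whole genome. They were compared across a fixed cut at 31.3 Mb, by the midpoint of each region: 1332 regions lay on the left side, which spans 31.3 Mb, and 130 on the right side, which runs 5.60 Mb to the end of the last peak at 36900374. The place of the cut had been set on the level of the input DNA in these same data, which was lower on the right side as a whole. That level is therefore described below without a test, and no step at the cut itself is resolved. Positions are those of the deposited lists, whose genome build is not stated in the sources at hand.

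TCF21 belongs to the basic helix-loop-helix factors, which bind short E-box sequences in DNA as dimers with broadly expressed E proteins. In mouse it is known as a mark of mesenchymal precursor cells, the precursors of white fat among them. Preadipocytes are the fibroblast-like cells that become fat cells when they are induced. In a ChIP experiment, fragments of chromatin that carry the factor are enriched over sheared chromatin sequenced without an antibody, the input DNA.

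The cells were chicken preadipocytes derived from adipose tissue that carried the construct LV-TCF21 and stably overexpressed TCF21. To induce differentiation, oleic acid was added to the medium of all samples at 300 µM for 24 h, and an antibody that recognises the HA tag was used to precipitate the chromatin. There were 3 immunoprecipitations and 3 input DNA samples, 6 in all, without a group of cells that lacked the construct, so the factor measured is the overexpressed one. Whether the samples of a group are separate cultures is not in the labels, so SDs and p-values below reflect a spread that may be technical only.

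Each immunoprecipitation gave 1 peak list, and the lists held 59501, 55895 and 57436 peaks. The pileup of a peak is the number of fragments stacked at its summit, and the fold enrichment is that number over the local control level. Both are values of the authors' peak caller. Sequencing depth is unknown and the pileups carry no scaling for it, so pileups are compared between the sides within a list. The test used for the sides is a two-sided exact permutation test that flips the sign of the within-list difference, and with 3 lists it cannot give a p below 0.25. No difference below can therefore pass a threshold of 0.05, and each is set against the spread between the lists. The cut was placed on the input level. Across left bins of 1 Mb that level went with region density, median pileup and median width (Spearman's rho 0.690, 0.583 and 0.505). The contrasts and p-values for density and pileup may therefore also not be independent of the choice of the cut. The same holds for width, and for spacing and clusters, which follow density.

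Regions were sparser on the right side. The left side held 42.6 reproducible regions per Mb and the right side 23.2, a ratio of 1.83. The right side made up 15.2% of the chromosome and held 8.89% of its regions. Reproducible regions covered 2.70% of the left side and 1.58% of the right side. In list 1 there were 66.6 peaks per Mb on the left and 36.8 on the right, from 2085 and 206 peaks. In list 2 there were 63.4 and 34.8 peaks per Mb, from 1983 and 195 peaks, and in list 3 there were 62.6 and 42.0, from 1958 and 235. The left values of all lists lay above all right values. The ratio of left to right was 1.71 ± 0.187 (SD, n = 3 lists, exact permutation p = 0.25), with list 3 giving the smallest ratio, 1.49. Without peaks at the floor of the input level, which were mostly on the right side, the ratio was 2.72. Leaving these peaks out thins the right side more by construction.

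The lower density on the right did not extend evenly to the end of the chromosome. When the right side was divided into 4 parts of 1.4 Mb, the part next to the cut held 17 reproducible regions, or 12.1 per Mb. The next parts held 24, 52 and 37 regions, or 17.1, 37.1 and 26.4 per Mb. In peaks, these parts had 23.3 ± 0.825, 29.5 ± 5.36, 55.5 ± 6.16 and 43.1 ± 3.67 per Mb (SD, n = 3 lists). The third part was above the part next to the cut in every list, with 76, 70 and 87 peaks against 34, 32 and 32. With the part next to the cut left out, a choice made after these values were seen, the ratio of left to right was 1.58 for regions and 1.52 for peaks.

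Bins of 1 Mb show the same overlap between the sides. The 31 bins on the left held from 15 to 84 regions per Mb, with a median of 38, and the 5 bins on the right held from 10 to 36. The bin from 31 to 32 Mb holds the cut and belongs to neither set. It had 15 regions and an input level of 0.853 ± 0.102. The lowest left bin, from 20 to 21 Mb, had 0.868 ± 0.0636, so the difference is within the SD. In list 3 the bin with the cut was the higher of the pair, at 0.967 against 0.795. In density, 4 of the right bins lay within the range of the left bins, and 1, from 32 to 33 Mb, lay below it. The left side had its own sparse stretch, with 15 regions from 19 to 20 Mb and 16 from 20 to 21 Mb. In all, 6 left bins were at or below the density of the right side as a whole. The densest bin on the chromosome was from 4 to 5 Mb, with 84 regions.

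**Figure D1:**
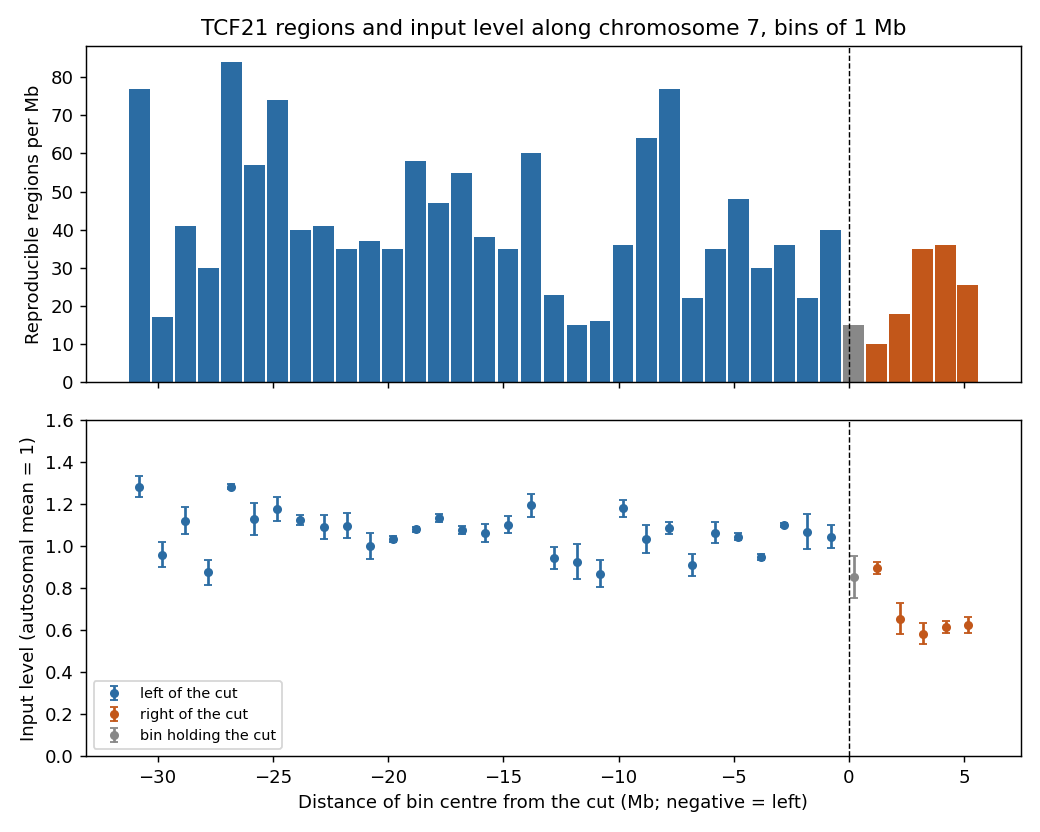
Reproducible TCF21 regions per Mb (top, bars) and mean input level of the peaks relative to the autosomal mean of the same list (bottom, points with SD over 3 lists) in bins of 1 Mb, plotted by distance from the cut in Mb. The bars of the 5 bins on the right side reach 10 to 36 regions per Mb and overlap those of the left side, while 4 of the 5 input levels lie below every one of the 31 left bins.

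The sparse stretch of the left side also held the weakest peaks of that side. The bin from 19 to 20 Mb had a median pileup of 14.0 ± 2.65 fragments and the bin from 20 to 21 Mb one of 14.3 ± 1.61 (mean and SD over 3 lists), the lowest of the 31 left bins. The bin after them, from 21 to 22 Mb, had the highest median pileup of the left side, 31.5 ± 5.22 fragments, with 36 regions. Its median fold enrichment, 10.0 ± 0.608, was also the highest of the left bins.

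Against stretches of its own length on the left side, the right side was the sparsest. The 5 consecutive stretches of 5.60 Mb to the left of the cut held 33.9 to 55.5 regions per Mb, and their peak densities ran from 52.02 ± 0.743 to 80.3 ± 5.06 per Mb. In every one of them, all 3 lists had more peaks per Mb and a higher median pileup than on the right side. Chromosomes 6 and 8, whose spans of 35.4 and 29.9 Mb are the nearest to that of chromosome 7, held 41.4 and 39.2 regions per Mb, close to the left side.

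The summits on the right side were lower. In list 1 the median pileup of the peaks in reproducible regions was 25 fragments on the left and 19 on the right. In list 2 it was 22 and 17.5 fragments, and in list 3 it was 19 and 14.5. In each list the right side was lower, by a similar ratio. The ratio of left to right was 1.29 ± 0.0324 (SD, n = 3 lists, exact permutation p = 0.25). The shift ran through the whole distribution, with ratios of 1.33 ± 0.0447 at the 10th percentile and 1.31 ± 0.0479 at the 90th. In bins of 1 Mb the sides nevertheless overlapped. The median pileups of the 5 right bins, 14.7 to 21.5 fragments, all lay within the range of the left bins, 14 to 31.5. The input level, described below, was lower on the right side too, and its part in the lower pileup was not tested. Whether less TCF21 was bound there is therefore not known. Samples of many cells would also not tell apart TCF21 bound in fewer cells from less TCF21 bound per cell.

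**Figure D2:**
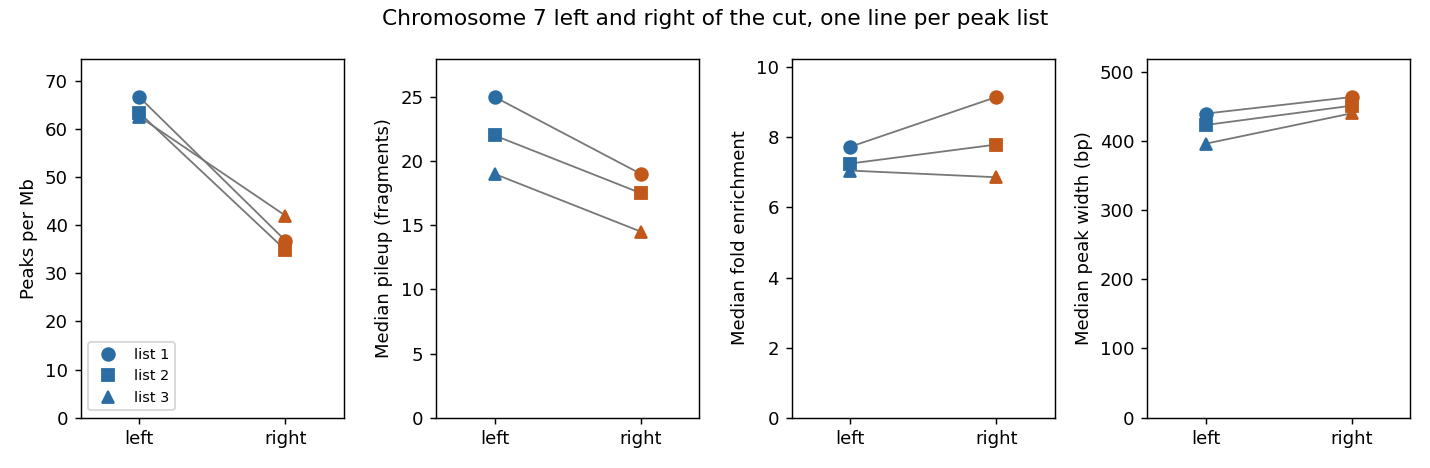
Peaks per Mb, median pileup in fragments, median fold enrichment and median peak width in bp on the left and the right side of the cut, with 1 line per peak list and axes that start at 0. Density and pileup are lower on the right in all 3 lists, fold enrichment is higher in lists 1 and 2 and lower in list 3, and width is higher on the right in all 3 lists.

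Strong regions by pileup were few on the right. A pileup of at least 50 fragments in every list was reached by 190 regions on the left, or 6.07 per Mb, and by 10 on the right, or 1.79 per Mb, a ratio of 3.40. They were 14.3% of the left regions and 7.69% of the right ones. By fold enrichment the order of the shares was the other way. At least 10-fold enrichment in every list was reached by 23.8% of the regions on the left, 317 of them, and by 28.5% on the right, 37 of them. In regions per Mb these were 10.1 and 6.61, a ratio of 1.53. In each list taken alone, the share of regions with at least 10-fold enrichment was also higher on the right, by 3.91 ± 1.51 percentage points (SD, n = 3 lists, exact permutation p = 0.25). Fold enrichment is taken over the input level, on which the cut was placed. Its contrasts and p-values, here and below, are therefore not independent of the choice of the cut.

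With all peaks of the lists, the median fold enrichment did not separate the sides beyond the spread between lists. In list 1 it was 7.73 on the left and 9.15 on the right, in list 2 it was 7.25 and 7.80, and in list 3 it was 7.05 and 6.86. The right side was higher in lists 1 and 2 and lower in list 3. The ratio of left to right was 0.934 ± 0.0916 (SD, n = 3 lists, exact permutation p = 0.5). At the 90th percentile the ratio was 0.988 ± 0.0750 (exact permutation p = 1.0). Under some limits the right median was higher in all 3 lists. The ratio was 0.850 ± 0.0175 at a q-value of at most 1e-05 and 0.898 ± 0.0504 without the chromosome ends. It was 0.878 ± 0.0890 without peaks at the floor and 0.767 ± 0.0469 with at least 15 fragments, a limit added after the data were seen. In the other settings with 3 lists, single lists differed in direction.

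**Figure D3:**
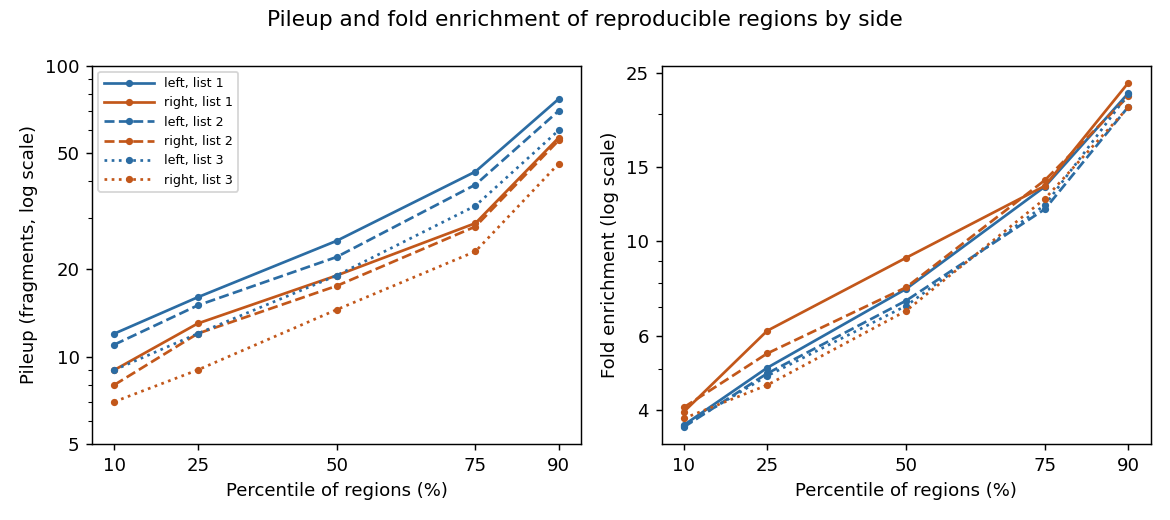
Pileup in fragments and fold enrichment at the 10th, 25th, 50th, 75th and 90th percentile of the reproducible regions on each side (log scales), with 1 line per list and side. The pileup lines of the right side run below those of the left side of the same list at every percentile shown. The fold enrichment lines of the right side run above those of the left side in lists 1 and 2 and cross them in list 3.

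The input level, on which the cut was placed, was also lower on the right side. It is the control value that the peak caller used at each summit, recovered as (pileup + 1) / fold enrichment − 1 and divided by its mean over all autosomal peaks in that list. Over the peaks in reproducible regions it was 1.17 ± 0.00879 on the left and 0.689 ± 0.0276 on the right (SD, n = 3 lists). The ratio of left to right was 1.73, 1.71 and 1.63 in lists 1, 2 and 3. The peak caller sets a floor to this level, which was 0.437, 0.445 and 0.465 of the autosomal mean in the lists. Within 1% of the floor lay 39.3%, 43.6% and 28.5% of all peaks on the right side in lists 1, 2 and 3, and 1.53%, 1.66% and 1.69% of those on the left. Where the floor was reached, the input under the summit may have been lower than the value shows, and the fold enrichment was set by the floor. In list 3 the 25th percentile of the right regions was 0.471, just above that list's floor. Without peaks at the floor the ratio of left to right was 1.31 for the input level and 1.08 for the median pileup. Leaving these peaks out removes the lowest input levels, mostly on the right side, so the smaller input ratio follows at least in part by construction. The part of the input level in the density, pileup and fold enrichment of the right side was not tested.

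The input level was lowest far from the cut, and its course up to 32500 kb is not resolved. In steps of 250 kb it was 1.009 ± 0.255 from 31000 to 31250 kb and 0.762 ± 0.112 from 31250 to 31500 kb, the step that holds the cut (SD, n = 3 lists). It was 0.844 ± 0.0463 and 0.779 ± 0.0866 in the next ones, and 0.966 ± 0.211 and 0.973 ± 0.149 in those from 32000 to 32500 kb. These last values rest on 10 and 32 peaks over all lists. Their medians over those peaks were 0.847 and 0.836, against 0.821 from 31000 to 31250 kb and 0.680 in the step that holds the cut. The following 250 kb held 1 peak over all lists. From 33500 kb on, the level was at most 0.680 in every step of 250 kb. In the part next to the cut, up to 32.7 Mb, the level was 0.857 ± 0.0410 (SD, n = 3 lists), and in the following parts it was 0.635 ± 0.0456, 0.605 ± 0.00934 and 0.616 ± 0.0261. The share of peaks at the floor was 9.25 ± 5.52% in the part next to the cut and 39.3 ± 12.7%, 42.3 ± 11.1% and 44.8 ± 11.3% in the others. The part with the fewest regions was therefore not the part with the lowest input level: density was lowest next to the cut, where the input level was highest of the 4 parts.

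The median pileup of the 4 parts was 20.3 ± 4.51, 18.8 ± 1.26, 16.2 ± 3.18 and 15.7 ± 1.53 fragments, in order from the cut. These SDs include differences in height between the lists. Within lists the medians were 25, 20, 18 and 17 in list 1 and 20, 19, 18 and 16 in list 2. In list 3 they were 16, 17.5, 12.5 and 14. The last part was thus below the part next to the cut in all 3 lists. The order of neighbouring parts was not the same in list 3, and no test was made. The median fold enrichment was 8.06 ± 0.795, 8.40 ± 0.967, 7.96 ± 1.62 and 7.21 ± 1.13 in the same order. In the last part it was 8.50, 6.76 and 6.38 in lists 1, 2 and 3. In the part next to the cut it was 8.85, 8.08 and 7.26, so higher in each list. The order of the other parts differed between lists.

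On the left side, bins with a higher input level at their peaks also held more regions. The level is known only at called peaks, not over the whole bin, and it was computed from their pileup. Its relation with pileup may therefore be built in, in part. Across the 31 left bins, which share libraries and are not independent, the density of regions and the input level had a Spearman's rho of 0.690 and a Pearson's r of 0.751. The median pileup of a bin and its input level had a rho of 0.583, and the median fold enrichment of a bin and its input level one of 0.228. The sparse bins from 19 to 21 Mb had the highest shares of peaks at the floor on the left side, 8.74% and 8.94%.

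Peaks on the right side were wider in the median, though not in every part of that side. In list 1 the median width of the peaks in reproducible regions was 439.5 bp on the left and 463.5 bp on the right. In list 2 it was 423 and 451 bp, and in list 3 it was 396 and 440 bp. The right side was wider in all 3 lists, although its peaks were lower, and the ratio of left to right was 0.929 ± 0.0254 (SD, n = 3 lists, exact permutation p = 0.25). Across the left bins, in contrast, bins with lower median pileups had narrower peaks (Spearman's rho = 0.839 over 31 bins). At the 90th percentile the order of the sides turned, with a ratio of 1.06 ± 0.0429 and the left side wider in all 3 lists.

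Peaks of like pileup were therefore set side by side, a comparison chosen after the widths were seen. They were not matched for the input level, which was lower on the right side and on which the cut was placed. The part of the input level in the width was not tested. Among peaks of 10 to 19 fragments, the median width was 344, 327.5 and 331 bp on the left in lists 1, 2 and 3, and 373, 381 and 443.5 bp on the right. The right side was wider by 65 ± 42.9 bp (SD, n = 3 lists, exact permutation p = 0.25). Among peaks of 20 to 39 fragments it was wider by 72.8 ± 24.8 bp, again in all 3 lists (exact permutation p = 0.25). Among peaks of at least 40 fragments, of which the right side had 22, 19 and 17, it was wider in 1 list only, with a difference of 8.5 ± 38.7 bp (exact permutation p = 1.0).

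Joined regions, which hold the peaks of all lists, had a median width of 534 bp on the left and 593 bp on the right. Their interquartile ranges were 418.75 to 746.25 bp and 454.5 to 785.75 bp. More than 3 peaks, so more than 1 in at least 1 list, were found in 6.83% of the left regions and 8.46% of the right ones, 91 and 11 of them.

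Neighbouring peaks stood farther apart on the right. The median distance between the midpoints of neighbouring peaks of a list was 5.98 kb on the left and 7.21 kb on the right in list 1. It was 6.14 and 8.39 kb in list 2, and 6.59 and 7.64 kb in list 3. The right side had the larger median in each list, and the ratio of left to right was 0.808 ± 0.0682 (SD, n = 3 lists, exact permutation p = 0.25). It was 0.423 without peaks at the floor and 0.430 with only peaks of at least 15 fragments, a limit added after the data were seen. Both limits remove a larger share of the peaks on the right, so these stronger contrasts follow at least in part by construction. The mean distances differed more, at 15.6 ± 0.513 kb on the left and 26.6 ± 2.51 kb on the right.

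The median distance was a smaller part of the mean distance on the right side. It was 0.4005 ± 0.0116 of the mean on the left and 0.292 ± 0.0275 on the right, lower on the right in all 3 lists (exact permutation p = 0.25). The counts of regions per window of 100 kb did not show the same order: their variance was 3.61 times their mean on the left and 3.27 times on the right. For reproducible regions the median distance was 9.20 kb on the left and 13.9 kb on the right, and the mean 23.5 and 43.3 kb. Distances over 100 kb between neighbouring regions numbered 62 on the left and 12 on the right. They made up 34.6% of the left side and 51.3% of the right side.

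Empty windows were more frequent on the right. Of the 313 windows of 100 kb on the left, 50 (16.0%) held no reproducible region, and of the 57 on the right, 19 (33.3%) held none. No peak of any list was found in 11 left windows and 6 right ones. Without those windows the ratio of left to right was 1.70 for the density of regions and 1.58 for that of peaks. The longest stretch without a reproducible region on the right side, from 35714981 to 36237590, was 523 kb long and held 1, 0 and 3 peaks in lists 1, 2 and 3. A further pair of stretches, from 32468733 to 32831755 and from 32832335 to 33199063, was parted by a single region. On the left side the longest was of the same order, 527 kb from 7328152 to 7855478, with 1, 0 and 0 peaks. The next ones on the left ran from 1706999 to 2183249 and, within the sparse bins, from 19751982 to 20121302.

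**Figure D4:**
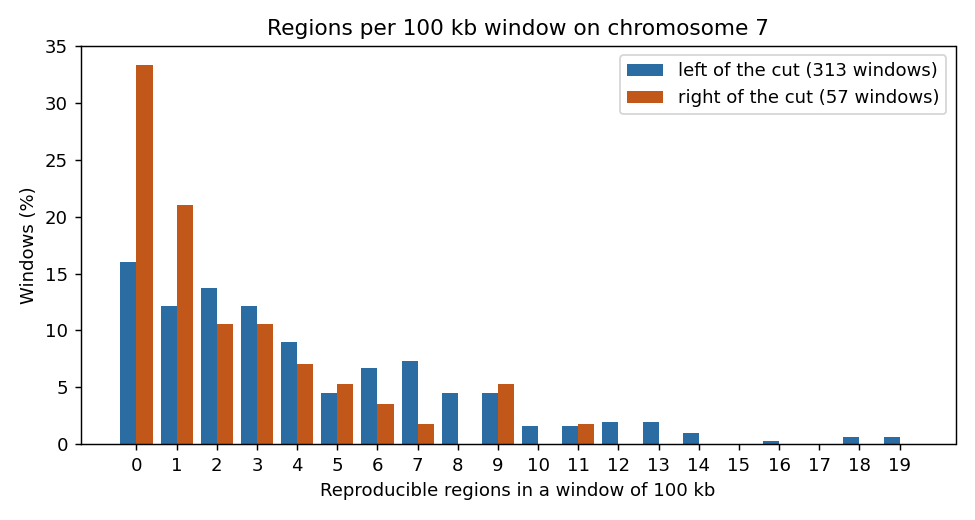
Share of windows of 100 kb, in percent, by the number of reproducible regions they hold, for the 313 windows left and the 57 windows right of the cut. Windows with no region make up 16.0% of the left and 33.3% of the right side, and windows with at least 12 regions occur on the left side only.

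Dense clusters were almost all on the left side. The measures of clusters used here take fixed distances, so the lower density of the right side lowers them by itself. They were not corrected for density, and whether the sides differ in clustering beyond it was not tested. At least 10 regions were found in 30 of the 313 left windows (9.58%) and in 1 of the 57 right ones (1.75%). These windows held 29.1% of the left regions and 8.46% of the right ones. Runs of at least 5 regions in which each neighbour lay within 10 kb numbered 55 on the left, or 1.76 per Mb, and 3 on the right, or 0.536 per Mb. They held 29.3% of the left regions and 16.2% of the right ones. A peak had another of its list within 10 kb in 82.1%, 80.7% and 79.5% of cases on the left and in 73.8%, 75.4% and 74.0% on the right, in lists 1, 2 and 3. The difference was 6.35 ± 1.67 percentage points (SD, n = 3 lists, exact permutation p = 0.25). It was 3.39 points with the cut moved 1 Mb to the right and 3.66 points without the part next to the cut. It was 12.4 points at a q-value of at most 1e-05, 16.2 points without peaks at the floor and 18.0 points with at least 15 fragments. Leaving out peaks at the floor or below 15 fragments thins the right side more by construction.

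The densest windows of the chromosome held 19 regions each, at 4400001 to 4500000 and at 23200001 to 23300000. The first had 35, 26 and 25 peaks in lists 1, 2 and 3, an input level of 1.53 ± 0.103 and, as its strongest region, one with a pileup of 115 ± 19.1 fragments. The second had 20, 20 and 21 peaks and an input level of 1.18 ± 0.0879. Its strongest region, at 131 ± 10.5 fragments and 40.7 ± 7.29-fold enrichment, lay near the end of the longest run on the chromosome, in which 14 regions lay between 23228664 and 23267402. The windows at 5700001 to 5800000 and 8100001 to 8200000 followed with 18 regions each.

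The densest window of the right side, at 35600001 to 35700000, held 11 regions and 16, 17 and 16 peaks. Its input level was 0.654 ± 0.0652, and its strongest region had 87.0 ± 12.1 fragments. The next windows on that side, at 34500001 to 34600000, 35200001 to 35300000 and 35300001 to 35400000, held 9 regions each. The last of these held the longest run of the right side, from 35300117 to 35317676, with 9 regions in 17.6 kb, 9, 11 and 9 peaks, and an input level of 0.622 ± 0.0304. All of these lay in the last 2 of the 4 parts.

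The highest pileups of the chromosome were on the left side. The region at 6142942 to 6144063 had 215, 188 and 173 fragments in lists 1, 2 and 3, or 192 ± 21.3 (SD, n = 3), and ranked 69 in the whole genome by mean pileup. Its fold enrichment was 40.05 ± 8.52. The region at 5690948 to 5692070 had 195, 195 and 168 fragments, with a fold enrichment of 39.2 ± 4.68. Both stood over an input level of about the same height, 2.02 ± 0.411 and 1.98 ± 0.359.

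A cluster near the start of the chromosome held a pair of the 6 highest regions. The region at 717381 to 718751 had 188, 175 and 178 fragments, and that at 678437 to 679282 had 189, 188 and 151. The same stretch held the 2 highest input levels of the left side, 3.37 ± 0.786 at 680500 to 681381 and 2.52 ± 1.09 at 664568 to 665553. At the first of these, 61.0 ± 11.5 fragments gave a fold enrichment of only 8.39 ± 1.68.

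The fourth of the 6 lay 943.9 kb to the left of the cut. This region, at 30355403 to 30356770, had 183, 203 and 153 fragments and a fold enrichment of 52.3, 75.4 and 47.2, or 58.3 ± 15.02, the second highest mean on the chromosome. The sixth, at 26404968 to 26406013, had 200, 179 and 144 fragments. The mean pileups of the 6 regions, from 174 to 192 fragments, differed from their neighbours in that order by less than the SD of either, so the order is not resolved.

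On the right side the highest pileup was at 32325012 to 32326431, 1026 kb beyond the cut. It had 158, 157 and 129 fragments in lists 1, 2 and 3, or 148 ± 16.5, and a fold enrichment of 37.5 ± 6.17. By mean pileup it ranked 19 on the chromosome, below all 6 regions named for the left side. Its input level, 1.57 ± 0.352, was the second highest of the right regions, after that of the neighbouring region at 32327304 to 32327826 with 1.71 ± 0.580.

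The second on the right, at 36739885 to 36741078 near the end of the chromosome, had 129, 131 and 122 fragments. Its fold enrichment was 36.9, 68.6 and 65.4, so list 1 stood apart although the pileups did not. Its input level was 1.16 in list 1 and 0.445 and 0.551 in lists 2 and 3, with list 2 at the floor. Its mean fold enrichment, 57.0 ± 17.4, ranked 3 on the chromosome, against a rank of 37 by pileup.

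The third, at 31920332 to 31920978, had 100, 113 and 91 fragments. The fifth, at 33337730 to 33338766, had 88, 97 and 81 fragments over an input level of 1.38 ± 0.444. The sixth, at 35676457 to 35677612, had 100, 85 and 76 fragments, and its fold enrichment ran from 16.3 in list 2 to 45.8 in list 1 with input levels of 2.05 and 0.556. Of these 6 regions on the right, 2 lay in the part next to the cut, although that part held 17 of the 130 regions.

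The widest region of the chromosome was also on the right side and was the fourth there by pileup. It ran from 34965740 to 34968845, 3106 bp, and held 2, 1 and 3 peaks in lists 1, 2 and 3. Its strongest peaks had 101, 100 and 78 fragments, their summits lay within 21 bp, and the fold enrichment was 44.2 ± 7.47. The next widest on the right, at 36249075 to 36251543, was 2469 bp long with 2 peaks in every list and 26.3 ± 2.08 fragments. Its strongest peaks differed between lists, with summits up to 1017 bp apart. The third, at 36477295 to 36479367, was 2073 bp long.

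On the left side the widest region, at 10128416 to 10130988, was 2573 bp long, again with 2 peaks in every list, and had 144, 117 and 110 fragments. The second, at 4383972 to 4386482, was 2511 bp long, and the summits of its strongest peaks were up to 1489 bp apart between lists. The third, at 28704639 to 28707039, was 2401 bp long with 57.0 ± 4.36 fragments.

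The regions next to the cut did not step in height. On its left, the nearest, at 31277178 to 31277683, had 109, 90 and 72 fragments, and the next ones, at 31271441 to 31271833 and 31154765 to 31155453, had 19 ± 1 and 12.7 ± 3.51. On its right, the nearest, at 31320263 to 31320760, had 13, 16 and 16 fragments, and the next ones, at 31376640 to 31377114 and 31520891 to 31521685, had 31.7 ± 6.11 and 81 ± 3. Their mean input levels were 0.942 to 1.26 on the left and 0.745 to 1.03 on the right, and the ranges overlap. The midpoints of the regions on both sides of the cut were 43.1 kb apart.

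The lowest input levels were at the floor, or next to it, on both sides. On the left, the region at 22413633 to 22413918 had 8, 9 and 4 fragments and was the only one of 1332 at the floor in every list, and the region at 6791301 to 6791755 was at the floor in 2 lists. On the right, 6 of the 130 regions were at the floor in every list. Among them were those at 34578772 to 34579162, with 22, 25 and 27 fragments and a fold enrichment of 13.8 ± 2.14, and at 34561488 to 34561990, with 27, 28 and 21 fragments and 14.0 ± 1.27.

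The remaining 1316 regions of the left side had mean pileups of 5.67 to 170 fragments, with a median of 21.7. The remaining 116 of the right side had mean pileups of 6 to 78 fragments, with a median of 16.3. Their median fold enrichments were close, at 7.45 and 7.42. The named regions left out here, 16 on the left and 14 on the right, are a larger share of the right side and include its highest pileups. These medians therefore do not compare the sides as a whole.

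Between lists, pileups and summit positions were slightly less alike on the right side, and fold enrichment was about equally alike on both. Across regions, which are not independent, the pileups of a pair of lists gave a Spearman's rho of 0.896 ± 0.00323 on the left and 0.857 ± 0.0148 on the right (SD over 3 pairs of lists). For fold enrichment rho was 0.776 ± 0.00731 and 0.773 ± 0.0104, and for the input level 0.233 ± 0.0540 and 0.193 ± 0.0625. The median distance between the summits of a pair of lists was 25.5 ± 0.5 bp on the left and 28 ± 0.5 bp on the right. They lay within 100 bp in 89.9% to 90.8% of the left regions and 84.6% to 88.5% of the right ones.

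The share of peaks inside reproducible regions stood apart between the sides mainly in list 3. It was 65.5% on the left and 66.5% on the right in list 1, 69.6% and 68.7% in list 2, and 71.0% and 57.9% in list 3. The difference, 4.35 ± 7.69 percentage points (n = 3 lists, exact permutation p = 0.75), was smaller than its SD. List 3 also had the most peaks on the right side, 235, of which 99 were in no reproducible region, against 69 and 61 in lists 1 and 2. The median pileup of those 99 peaks was 5 fragments. Of all joined regions, 42.3% on the right and 35.2% on the left held a peak of a single list.

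Chromosomes 2 and 3 also have 2 stretches of unlike input level and were divided at 52 and 60 Mb, places set by earlier results of these data. The ratio of left to right in peak density was 1.42 ± 0.0479 on chromosome 2 and 1.41 ± 0.0983 on chromosome 3 (SD, n = 3 lists), against 1.71 ± 0.187 on chromosome 7. The ratio on chromosome 7 was higher in all 3 lists, by 0.26 ± 0.12 on the log2 scale against chromosome 2 and by 0.27 ± 0.07 against chromosome 3 (exact permutation p = 0.25 for each).

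The median pileup ratio of chromosome 7, 1.29 ± 0.0324, was near that of chromosome 2, 1.32 ± 0.0192 (exact permutation p = 0.5 for the difference), and above that of chromosome 3, 1.19 ± 0.0370, in all 3 lists. The input ratios were 1.68 ± 0.0169 on chromosome 7, 1.65 ± 0.0307 on chromosome 2 and 1.36 ± 0.0342 on chromosome 3, over all peaks. In peak width the direction differed from that of these 2 chromosomes. The right side of chromosome 7 had the wider peaks, with a ratio of left to right of 0.929 ± 0.0254, whereas the ratio was 1.02 ± 0.0117 on chromosome 2 and 1.02 ± 0.0171 on chromosome 3. The log2 ratio of chromosome 7 was lower by 0.13 ± 0.03 against chromosome 2 and by 0.13 ± 0.04 against chromosome 3, in all 3 lists each (exact permutation p = 0.25).

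The right side of chromosome 7 is also its end, so the last 5.60 Mb of each autosome of at least 20 Mb were set against the rest of it. On chromosome 7 this stretch was set by the input level in these data, whereas on the others it was not chosen by any value. The comparison therefore favours chromosome 7 to stand out in input level and in any measure that goes with it. On the 10 other autosomes the ratio of the rest to the last stretch in peak density ran from 0.598 to 1.69, and the median over them was 0.924 ± 0.00701 (SD, n = 3 lists). Chromosome 7, at 1.71 ± 0.187, was above that median in all 3 lists (exact permutation p = 0.25). Chromosome 2, at 1.69 ± 0.0146, lay within 1 SD of chromosome 7. The input level ratio was 1.68 ± 0.0169 on chromosome 7, 1.51 ± 0.0147 on chromosome 2 and 0.934 to 1.25 on the other 9. In median pileup, chromosome 2 had 1.32 ± 0.0249 and chromosome 7 had 1.29 ± 0.0324, and the median over the 10 was 1.02 ± 0.0169. In median width, peaks of the last stretch were also wider elsewhere, with ratios of 0.910 ± 0.0404 on chromosome 1, 0.934 ± 0.0261 on chromosome 11 and 0.944 ± 0.0547 on chromosome 3, against 0.929 ± 0.0254 on chromosome 7. The median ratio over the 10 was 0.985 ± 0.00479, above that of chromosome 7 in all 3 lists (exact permutation p = 0.25). Chromosome 3 had an input ratio of 1.25 ± 0.0208 with a denser last stretch, at a peak density ratio of 0.896 ± 0.0331.

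**Figure D5:**
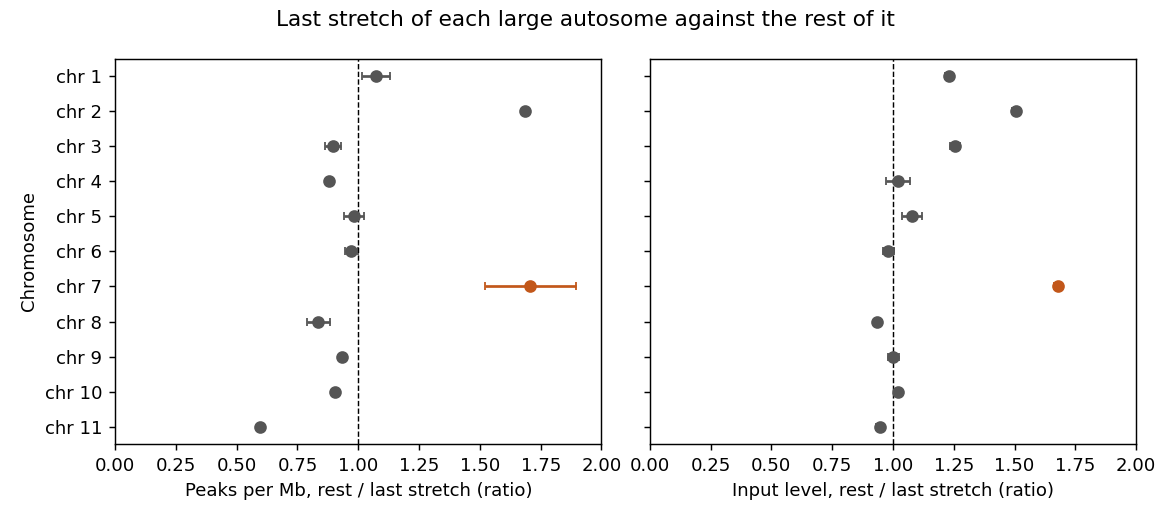
Ratio of the rest of each autosome of at least 20 Mb to its last 5.60 Mb in peak density (left panel) and in input level (right panel), as mean and SD over 3 lists, with chromosome 7 in orange and a dashed line at a ratio of 1. Chromosomes 7 and 2 have the highest ratios in both panels, and the density ratios of the other 9 lie between 0.598 and 1.07.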

How the data were processed

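Per the file headers and peak names, each of the 3 immunoprecipitations has its own peak list. The number in those names was not matched to a replicate number, so lists 1, 2 and 3 are unnumbered samples of 1 group. Tools named in the submitters' processing notes, with no role given, are MACS2, HOMER, bedtools, STAR 2.5.3a and Trimmomatic 0.36. The pileup is a deposited signal, with 100% whole numbers and a smallest value of 3. The fold enrichment is a deposited ratio to the control level nearby, with 1 added to both. The q-value of each peak is deposited as its −log10, of which the smallest was 0.389. Widths were computed from the deposited starts and ends. No label or header states the build, the calling threshold or the control library of a list, and depth is unknown, so no counting interval was computed.

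Overlaps, medians and exact permutation tests were computed with Python 3.11.15, numpy 2.4.6 and pandas 2.3.3, and tested on simulated data. In a region with several peaks of a list, the one with the highest fold enrichment was used. Densities use the span from the chromosome's start to the cut and from there to the last peak. Named regions are, on each side, the 6 highest by mean pileup, the 3 widest, the 3 nearest the cut, the 2 highest and the 2 lowest by input level, the 3 densest windows with ties, the longest run and the 3 longest stretches without a region. These were chosen by their values and are described without a test. The members, the cut and the tests were chosen with earlier results of these data known. Sequences and gene positions were not used here, since no genome of a stated build was at hand.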

Additional observations from a re-analysis of the deposited data

How the results depend on the processing

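The contrasts of the left with the right side were recomputed with a reciprocal overlap of 50%, q-values of at most 0.05 or 1e-05, regions of at least 2 lists, each list left out, the cut moved by 1 Mb, both chromosome ends or empty windows left out, the strongest peak chosen by pileup, and peaks at the floor left out, each where it applies. Without the part next to the cut, and with at least 15 fragments, were added after the data were seen. In the 121 recomputed values, the contrast with chromosome 2 among them, the mean over lists kept its direction each time. The exact permutation test cannot pass 0.05 with 3 lists, and its smallest p is 0.5 with 2, so this says nothing about calls. The ratio for reproducible regions ran from 1.58 to 2.44, for peak density from 1.52 to 2.72, for median pileup from 1.08 to 1.36, for median width from 0.881 to 0.957, and for median spacing from 0.423 to 0.942. For fold enrichment it ran from 0.767 to 0.966, but single lists differed in direction in most settings. The share of peaks in reproducible regions differed by 1.51 to 34.9 points, and here too single lists differed in direction in many settings. With the cut moved 1 Mb to the right, only 1 of the 3 lists had the higher share on the left. The highest difference in this share came without peaks at the floor, a limit that removes more peaks on the right by construction. The same limit gave the highest ratio for peak density and the lowest for median spacing. The input ratio of 1.69 was 1.48 with the cut 1 Mb to the left, where left-side sequence joins the right side. It was 1.73 with the cut 1 Mb to the right and 1.81 without the part next to the cut. Without peaks at the floor it was 1.31, a limit that removes low input levels mostly on the right by construction.

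With 1 list left out at a time, the values were 1.73 to 1.90 for reproducible regions, 1.65 to 1.82 for peak density, 1.22 to 1.36 for pileup and 2.55 to 8.32 points for the share in reproducible regions. The contrast of chromosome 7 with chromosome 2 in density, at sides of unlike length, was 0.23 to 0.33 on the log2 scale. It was varied in no other way. The tests pair the sides within a list. Between immunoprecipitation and input samples, no paired analysis was possible because a list carries no replicate number of a sample and the input samples have no values of their own. The smallest pileups were 3 or 4 fragments, so weak peaks are coarse, and the floor limits how low an input level can be seen.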
